A study of Mus musculus with 6 samples.

Results

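RNA G-quadruplexes (rG4s) are 4-stranded structures that guanine-rich RNA can form, and the sites described here are those classed as two-quartet, the thinnest form, that lie in 3′ untranslated regions of mouse transcripts. They were taken as every site whose deposited class is two-quartet and whose deposited gene position is exactly 3′ UTR, which gave 515 of the 5538 sites in the 8 deposited tables. The 3′ UTR holds 2775 sites in all, among them 600 canonical sites with short loops, 947 bulged sites, 389 long-loop sites and 303 sites described only as potentially quadruplex-forming and G-rich. No measured value entered this choice. How the whole site list was drawn up is not stated in the labels; in vitro, the stop share in K+ exceeded that in Li+ at each of the 435 and 283 sites that had 20 reads in both cations in replicates 1 and 2, so the list may rest on such in vitro stops.

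The cells were mouse embryonic stem cells of a clonal TsixTST/+ line from a 129S1/CastEiJ x 129S1 background, with the genotype given in the labels as WT. All 6 samples share that line and the dimethyl sulfate (DMS) treatment, so there is no sample of another clone and no untreated sample here. Day 0 cells (2 samples) came from cultures with leukemia inhibitory factor on feeders. Day 3 embryoid bodies (2 samples) had differentiated without the factor in suspension, and day 7 embryoid bodies (2 samples) had then grown attached to gelatin. Each day 7 record also holds an in vitro table, whose identity rests on its name and on the series' design text. The labels do not describe how the RNA of the in vitro tables was prepared or treated. Nothing in the labels says that replicates came from separate cultures, so p-values below measure the spread between these samples, which may be technical.

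A G-quadruplex stacks planar quartets of guanines around a central cation. K+ stabilises the stack and Li+ does not, and a folded motif blocks reverse transcriptase at its 3′ edge. DMS methylates guanines at a position that pairing in a quartet hides, so a motif that was unfolded in the cell can no longer fold in the K+ reaction. A stop share, the number of stops per 100 reads over the site, that is higher in K+ than in Li+ therefore marks a motif that DMS had not modified. A two-quartet motif has a pair of stacked quartets and is in general less stable than the canonical form with 3 or more. 3′ UTRs carry signals for the stability, localisation and translation of a transcript, and some of their G-rich motifs have been described as quadruplexes.

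The motifs were short and rich in guanine. They ran from 11 to 35 bases with a median of 21, all 515 began and ended in a pair of guanines, and the median guanine share was 64.7%. In 227 motifs there were exactly 4 separate runs of 2 or more guanines, in 190 there were more, and in 98 there were fewer, because a long run can serve more than 1 strand of the structure. A run of 3 or more guanines occurred in 513 motifs, but none had 4 such runs, which a canonical motif needs. Among the 4610 bases outside the runs, 39.9% were A, 34.0% were T, 14.2% were C and 12.04% were single G. The deposited stop mark began on the base just 3′ of the motif in 312 sites and on its last base in 116 sites.

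The sequences of the sites that the results turn on are given 5′ to 3′ on the transcribed strand as deposited, with runs of 2 or more guanines in capitals. The first set holds the sites whose K+ stop count differed between days.
Peg3: GGaatGGcaGGGcagttgtGGcGG
Ccn1: GGagacgtGGGtGGGcGGaGG
Asna1: GGtGGGGcctGGGGaGG
Senp3: GGGGGtGGtGGacgcgcaaaGG
Calr: GGaGGGcaGGagaaGGGGGtGG
The Peg3 site lies at chr7:6704185-6704208 on the minus strand and the Ccn1 site at chr3:145647592-145647612 on the minus strand (build GRCm38.p6). The Asna1 site lies at chr8:85017988-85018004, the Senp3 site at chr11:69673215-69673236 and the Calr site at chr8:84842256-84842277, all on the minus strand. All 5 are in the 3′ UTR by the deposited annotation, between 59 bases (Asna1) and 621 bases (Ccn1) from the 3′ end of the gene in RefSeq.

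The second set holds the 5 sites of Igf2bp1, the gene with the most sites, in order from the 3′ end of the gene.
Igf2bp1, 74 bases from the end: GGGGGtcccttccGGGGG
Igf2bp1, 285 bases from the end: GGatgtctGGGaGGcattGGGGGG
Igf2bp1, 1144 bases from the end: GGGGGGaGGGGG
Igf2bp1, 3767 bases from the end: GGGcattcttGGttttagagtGGtGGG
Igf2bp1, 4304 bases from the end: GGttGGGGcctGGatccaGGGGaGGaGG
The first of these, at chr11:95957237-95957254, and the third, at chr11:95958307-95958318, are each made of a pair of long guanine runs. The motif 285 bases from the end lies at chr11:95957448-95957471, and the most distant 2 lie at chr11:95960930-95960956 and chr11:95961467-95961494, all on the minus strand.

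The third set holds sites with a high stop share in vitro and a site pair in Tubb5, which encodes a beta-tubulin.
Atp2b1: GGGcGGGtGGGaGG
Isg20l2: GGGGtGGGGGaGGG
St13: GGGcaGGGaGGtgagtGG
Hnrnpa0: GGGtGGGGGttGGGcGG
Tubb5, shorter motif: GGagagatGGGGGttGGGGGtgcGG
Tubb5, longer motif: GGagagatGGGGGttGGGGGtgcGGcaaGG
The Tubb5 motifs, at chr17:35834172-35834196 and chr17:35834167-35834196 on the minus strand, share their 5′ end, and the longer adds a further guanine pair. Atp2b1 lies at chr10:99024938-99024951 on the plus strand, Isg20l2 at chr3:87939747-87939760 on the plus strand, St13 at chr15:81365123-81365140 on the minus strand and Hnrnpa0 at chr13:58127062-58127078 on the minus strand.

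The 515 sites were spread over 437 gene entries. In 373 of these there was 1 site, in 52 there were 2, in 11 there were 3, and Igf2bp1 had 5. Sites are not independent of each other: 57 overlapped another two-quartet 3′ UTR motif on the same strand, which left 486 separate loci, and 122 overlapped a motif of another class, most often a bulged one (56 sites). For 509 sites the distance to the 3′ end of the gene could be read from RefSeq (432 of 437 symbols matched directly and 3 as synonyms). The median distance was 756 bases (quartiles 264 and 1642).

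Depth limited what could be compared. In cells, the libraries listed between 413257 and 4210633 reads over all sites, of which ribosomal and mitochondrial RNA took 67.5% to 83.8% in K+. The two-quartet 3′ UTR sites received 6592 to 74978 reads in K+ and 7765 to 137982 in Li+. No coverage from 1 to 5 reads appears in the tables. A site listed at 0 may thus have had up to 5 reads, and in K+ this held for 5 sites in day 7 replicate 1 and for up to 255 in the other samples (day 3 replicate 1). Of 8 markers of pluripotent cells, 4 had a site. Their summed coverage in CPM (reads scaled to a total of 1e6) was taken outside ribosomal and mitochondrial RNA. It was 7058 and 5948 on day 0, 6886 and 7031 on day 3 and then 2795 and 3531 on day 7. Pou5f1, Esrrb and Tdgf1 were lower in both day 7 samples than in both day 0 samples, and Pou5f1 fell most in CPM. Lin28a went the other way, with both day 7 samples above both day 0 samples. Of 10 markers of differentiated cells, 4 had a site, with sums of 262 and 0.0 on day 0, 3094 and 1657 on day 3 and then 54645 and 24091 on day 7, nearly all from the noncoding RNA H19. Of 9 markers of feeder fibroblasts only Col1a1 had a site, at 0 on days 0 and 3 and at 73.6 and 120.1 CPM on day 7.

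The library labelled day 0 replicate 2 went against its cation labels. At the canonical 3′ UTR sites its stop share was 2.67% in K+ and 7.35% in Li+, while day 0 replicate 1 had 4.17% and 4.36%. The direction of any K+ against Li+ value that rests on this library is therefore doubtful. Comparisons between classes are given with it and without it, and that with canonical sites also with its cation columns exchanged. Most other values that rest on it are given with it alone.

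In vitro, the two-quartet 3′ UTR sites stopped the enzyme at about every second read in K+. The share over all their reads was 51.9% (95% exact binomial interval 51.5% to 52.2%) in replicate 1 and 50.9% (50.6% to 51.2%) in replicate 2. In Li+ the shares were 7.15% and 6.75%. Intervals and floors here cover counting error only, since the reads carry no stated molecular identifiers. Single sites ranged widely: among the 202 sites with 100 or more K+ reads in both replicates, the median of the mean in vitro share was 48.9% and the highest 95.4%. The ranking of sites was similar in both replicates (Spearman's rho 0.89 across 488 sites, which share a library design and are not independent).

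The highest in vitro share belonged to Atp2b1, a calcium pump of the plasma membrane, with 163 stops in 169 reads in replicate 1 and 135 in 143 in replicate 2, a mean of 95.4% ± 1.4 (SD, n = 2). Isg20l2, a nuclease of ribosome biogenesis, had 92.4% ± 0.88. Ing1, a chromatin reader, had 92.3% ± 1.6. The differences between these neighbours are of the size of the replicate spread. The next in order were Rmnd5a, St13, Pbrm1, Hnrnpa0, Trim71, Ubxn7 and Acly, with means from 90.8% down to 87.8%. The site in St13, which encodes a cochaperone of Hsp70, was the most deeply read of these, with 1891 stops in 2076 reads and 1328 in 1471. At the other end, Bax, an effector of cell death, had 14.2% and 9.80%, and Slc2a3, a glucose transporter, had 61 stops in 469 reads and 58 in 512. These sites fell short of those with the highest K+ shares by far more than the spread between replicates. The order is by K+ share alone. In Li+ the 10 highest had shares from 0.0% at Atp2b1 (17 and 6 reads) to 33.3% at Pbrm1 in replicate 2 (5 of 15 reads).

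Shorter motifs had higher in vitro shares. The median of the mean share was 61.1% for 62 motifs of 11 to 17 bases, 45.7% for 83 motifs of 18 to 25 bases and 43.0% for 57 motifs of 26 to 35 bases. Motifs in which no gap between runs exceeded 3 bases had a median of 61.2% (73 sites), against 43.2% for a longest gap of 4 to 6 bases (80 sites) and 43.1% for 7 or more (49 sites). With 3 runs of 3 or more guanines the median was 61.2% (61 sites), with 2 it was 42.8% (122 sites), and with 1 or none it was 51.1% (19 sites). The medians thus did not rise steadily with the number of runs. Spearman's rho between that number and the share was 0.21 and 0.20 in the 2 replicates over the 202 sites. By the length of the longest run the medians were closer, with 53.0%, 50.2% and 46.4% for runs of 3, 4 and 5 or more. The quartiles overlapped throughout, from 38.2% to 77.0% for the shortest motifs and from 22.8% to 61.4% for the longest. Spearman's rho between length and share was -0.27 and -0.26 in the 2 replicates over the 202 sites, given as a description since sites overlap and share base composition. Sites that overlapped a motif of another class had a lower median, 35.6% (57 sites), than those that overlapped none, 54.7% (145 sites).

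**Figure D1:**
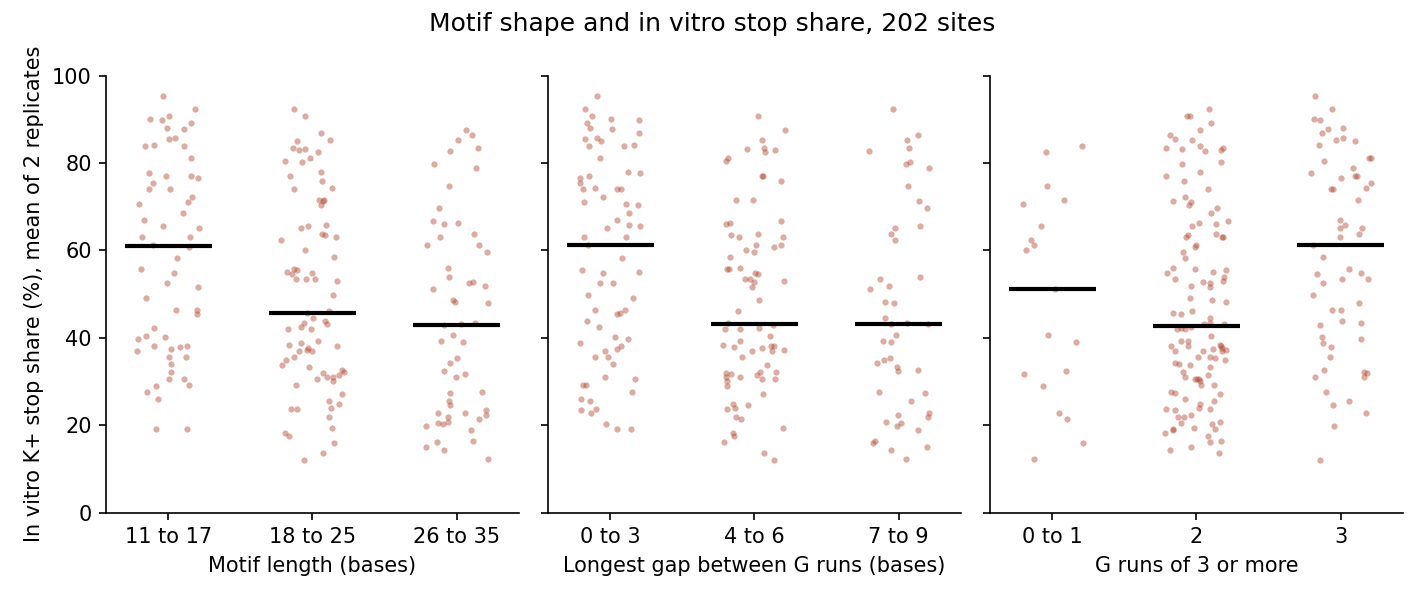
In vitro K+ stop share (%, mean of 2 replicates, vertical axis) of the 202 two-quartet 3′ UTR sites with 100 or more K+ reads in both in vitro tables, by motif length, longest gap between G runs and number of runs of 3 or more guanines. Each point is a site and each bar the median of its group; the medians are 61.1%, 45.7% and 43.0% from short to long motifs, and points of all groups overlap.

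In cells, the K+ stop share of the same sites was about an order of magnitude lower than in vitro, and the Li+ share was lower to a lesser degree. The cations were closer to each other than in vitro, and furthest apart in day 3 replicate 1. In K+ the share was 2.58% and 2.67% in the day 0 samples, 6.63% and 3.28% on day 3, and 4.89% and 3.03% on day 7. In Li+ it was 2.69% and 3.65%, 2.93% and 2.46%, and 3.80% and 3.77%. K+ exceeded Li+ in both day 3 samples and in day 7 replicate 1, and was below Li+ in the other samples. Replicates of the same day differed by more than their counting intervals in K+ on days 3 and 7 and in Li+ on day 0. On day 3 the K+ interval was 6.04% to 7.26% in day 3 replicate 1 and 3.01% to 3.57% in day 3 replicate 2.

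**Figure D2:**
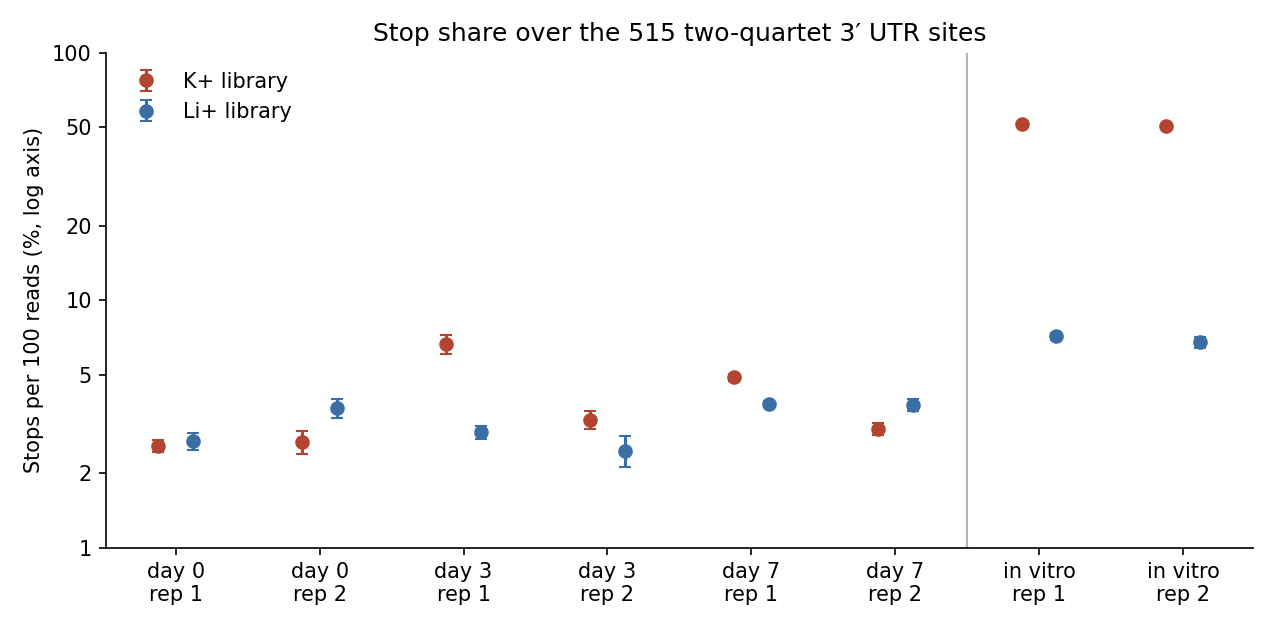
Stops per 100 reads (%, log axis) over the 515 two-quartet 3′ UTR sites in K+ and Li+ libraries of each table; bars are 95% exact binomial intervals, which cover counting error only. The in-cell shares lie between 2.46% and 6.63%, and the in vitro K+ shares are 51.9% and 50.9%.

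A common odds ratio of a stop in K+ over Li+ was then computed within sites (Mantel-Haenszel, sites with 20 or more reads in both cations), which removes differences in which sites were covered. The log2 value of this ratio for the two-quartet 3′ UTR sites was -0.02 ± 0.08 (counting SE) and -0.40 ± 0.11 on day 0. It was 0.93 ± 0.10 and 0.41 ± 0.14 on day 3, and 0.39 ± 0.03 and -0.30 ± 0.07 on day 7. In vitro it was 3.68 ± 0.03 and 3.56 ± 0.05. Both day 3 samples lay above both day 0 samples, and the day 7 samples fell on either side of 0. Over samples the means were -0.21 ± 0.27 (SD, n = 2) on day 0, 0.67 ± 0.37 on day 3 and 0.04 ± 0.49 on day 7. With 2 samples against 2, an exact two-sided permutation test cannot go below p = 0.333. The exact permutation p was 0.333 for day 3 against day 0 and 0.667 for day 7 against day 0. Exchanging the cations of day 0 replicate 2 turns its value to the other side of 0, which would put it level with day 3 replicate 2.

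The canonical 3′ UTR sites were further from 0 in most samples. Their common log2 odds ratios were -0.01 and -1.49 on day 0, 1.95 and 1.38 on day 3 and then 1.16 and 0.27 on day 7. By the median over sites, two-quartet sites were lower than canonical sites in 4 of 6 samples, by 1.12 and 0.91 on day 3 and by 0.65 and 0.49 on day 7. They were higher by 0.02 and 0.95 in the day 0 samples. The mean difference was -0.37 ± 0.75 (SD, n = 6) and did not differ from 0 in an exact two-sided sign permutation test over the 6 samples (p = 0.3125, Benjamini-Hochberg adjusted p = 0.50 over 4 class comparisons; the smallest p possible is 0.03125). Without day 0 replicate 2 the mean difference was -0.63 with p = 0.125 (exact, smallest possible 0.0625), and with its cations exchanged it was -0.68 with p = 0.0625 (exact permutation).

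Against the other classes the differences were smaller. The mean difference of the medians was -0.14 ± 0.32 from bulged, -0.25 ± 0.31 from long-loop and -0.03 ± 0.12 from G-rich 3′ UTR sites (SD, n = 6 each). The exact permutation p-values were 0.375, 0.125 and 0.53125, and adjusted p-values were 0.50, 0.50 and 0.53. Without day 0 replicate 2 the mean differences were -0.24 from bulged, -0.31 from long-loop and -0.01 from G-rich sites. In vitro the median over sites was higher for two-quartet than for canonical sites, by 0.24 and 0.32, and the common log2 odds ratio by 0.86 and 0.42; whether this differs from the cells was not tested. Their in vitro K+ share at the sites compared was 51.2% and 48.5%, against 54.4% and 52.6% for canonical sites. The Li+ share was 7.18% and 6.93% against 14.9% and 11.4%, so canonical sites stopped more often in Li+ as well. Two-quartet sites in coding sequence had common log2 odds ratios of -0.20 and -0.26 on day 0, 0.37 and -0.35 on day 3, 0.10 and -0.38 on day 7, and 3.29 and 3.29 in vitro.

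**Figure D3:**
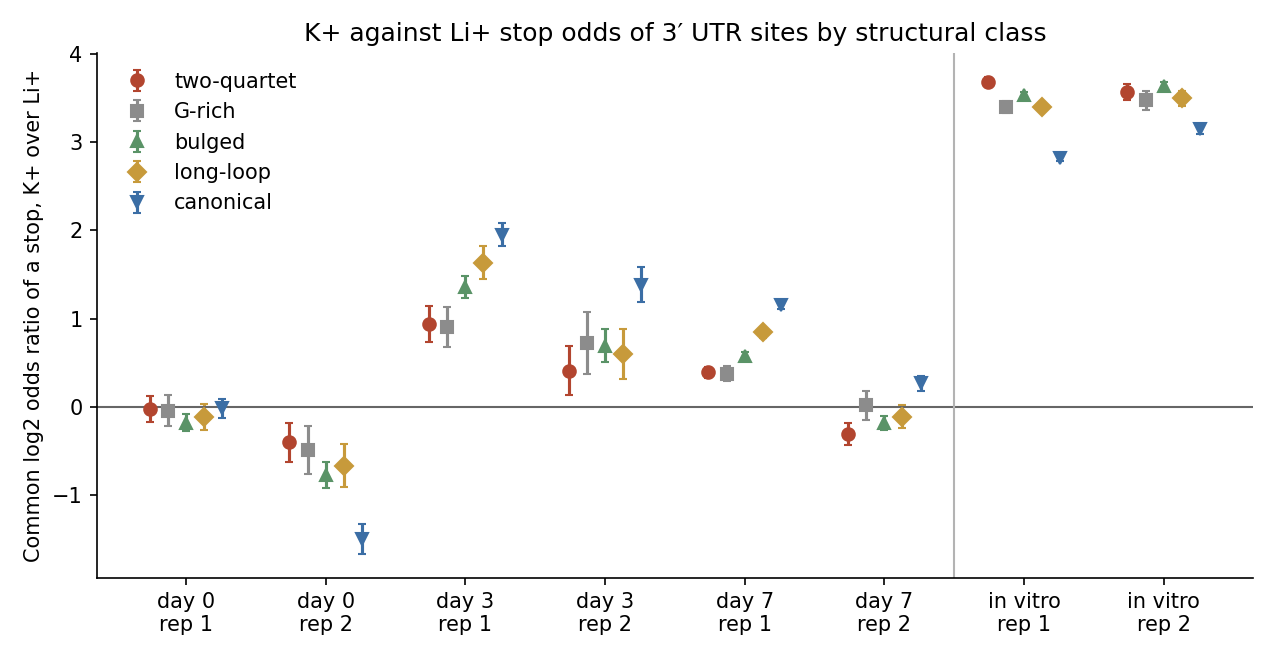
Common log2 odds ratio of a stop in K+ over Li+ (vertical axis, Mantel-Haenszel over sites with 20 or more reads in both cations) for 3′ UTR sites of 5 classes in each table; bars are 95% intervals from the counting error. In cells the two-quartet sites lie between -0.40 and 0.93 and the canonical sites between -1.49 and 1.95, and in vitro the two-quartet sites, at 3.68 and 3.56, lie above the canonical ones.

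Single sites were tested for K+ against Li+ stop odds within each day with limma, on 844 sites with 20 or more reads in all 12 in-cell libraries, of which 89 were two-quartet 3′ UTR sites. None of the 89 passed an adjusted p of 0.05 on day 0, 3 or 7, and none of all 844 sites did (0.0% on each day). At an unadjusted p under 0.05, 5 of the 89 were found on day 0, 10 on day 3 and 5 on day 7, against 74, 159 and 56 of the 844. The median log2 odds ratio of the 89 was -0.16, 0.49 and 0.10 on the 3 days, beside -0.26, 0.71 and 0.24 over all 844. The change from day 0 to day 7 was also not called at any site (0 of 844, 0.0%; 3 of the 89 at an unadjusted p under 0.05, against 96 of 844), and its median was 0.40 for the 89 and 0.53 for all. By its sign alone, the ratio was above 0 in all 6 samples at 3 of the 89 sites, in Stub1, Rcor2 and Magoh, and below 0 in all 6 at Plekhj1; over all 844 sites the counts were 12 and 5.

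On day 3 the smallest p belonged to Tnpo2, a nuclear import receptor. Its stops were 3 of 28 reads in K+ and 1 of 119 in Li+ in replicate 1, and 4 of 37 and 0 of 27 in replicate 2. The log2 odds ratio was 3.07 ± 0.84 (SE), with an adjusted p of 0.064 by limma. These counts are small, and the site was not called. The shorter Tubb5 motif came next, with 7 of 52 against 6 of 251 and 17 of 114 against 2 of 67, a ratio of 2.39 ± 0.79 and an adjusted p of 0.096, and then Dusp9, a phosphatase of MAP kinases (2.26 ± 0.85, adjusted p = 0.15). With the replicate number as a block, 2 of the 89 sites and 49 of all 844 were called on day 3, although the numbers do not pair these samples.

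On day 7 the smallest p-values were those of Dvl2, a Wnt signalling protein, and of the Tubb5 pair. Dvl2 had 6 stops in 106 K+ reads and 0 in 204 Li+ reads in replicate 1, and 4 of 79 against 2 of 70 in replicate 2 (3.15 ± 0.96, limma adjusted p = 0.37). The longer Tubb5 motif had 72 of 736 K+ reads and 21 of 1293 Li+ reads in replicate 1, and 19 of 282 against 13 of 222 in replicate 2 (1.74 ± 0.54, adjusted p = 0.37). Its K+ share exceeded its Li+ share in both day 3 and both day 7 samples. In the day 0 samples it was lower in K+, with 5.13% against 6.25% and 4.48% against 19.7%, the latter in the library whose cations are in doubt. The change from day 0 to day 7 at this site was 2.93 ± 0.86 with a limma adjusted p of 0.27; without day 7 replicate 2 it was the only 1 of the 89 sites called, with an adjusted p of 0.0068, as it was for day 7 itself (0.044). With the cations of day 0 replicate 2 exchanged, the change was 0.88. On day 0 the smallest p-values were in Ldb1, Kpnb1 and Igf2bp1, all with lower odds in K+ (-2.30 ± 0.75, -1.91 ± 0.73 and -1.37 ± 0.59; adjusted p = 0.33, 0.45 and 0.51 by limma).

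The in vitro odds exceeded the day 7 odds at nearly every site. Of 251 two-quartet 3′ UTR sites with 20 or more reads in all 8 libraries of both conditions, 230 were called higher in vitro and none lower (limma, adjusted p under 0.05). Over all sites 2279 of 2646 were called higher, 86.1%, beside 91.6% of the two-quartet 3′ UTR sites. Because the site list may have been drawn up on in vitro K+ stops, its choice can fix part of this direction. The median difference was 3.68 on the log2 scale (quartiles 2.61 and 4.56), beside 3.36 over all sites tested. At 241 of the 251 sites both in vitro values lay above both day 7 values.

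Among the largest differences was St13: its log2 odds ratio was 0.65 and -1.60 in the day 7 samples and 6.86 and 6.72 in vitro, a difference of 6.94 ± 0.68 (SE, adjusted p = 2.8e-11 by limma). Its day 7 share in K+ was 22 of 555 reads and 5 of 255. Hnrnpa0, which encodes an RNA-binding protein, differed by 6.26 ± 0.62 (adjusted p = 2.8e-11). Trim71, an RNA-binding ubiquitin ligase of stem cells, had values of -0.14 and 0.69 on day 7 and 7.10 and 6.33 in vitro (6.71 ± 0.85, adjusted p = 1.0e-08). The others of the 10 largest were Fkbp5, Map7d1, Dlst, Taf1, Setd6, Nsd1 and Dnmt3b, with differences from 6.23 to 7.70. On day 7 the ratios of these sites lay on both sides of 0, or at or below it. The lower ones included Nsd1, with -1.80 and -2.07, and Taf1, with -2.92 and -0.36. In vitro all of these sites lay far above 0. A call was missed at 21 sites. The 2 whose difference was not above 0 were Prkaca, with 1.29 and 2.29 on day 7 and 1.27 and 1.68 in vitro, and Dvl2, with 4.61 and 0.73 on day 7 and 3.33 and 2.90 in vitro. At both sites the day 7 values overlapped or exceeded the in vitro values, on 3 to 6 K+ stops in each day 7 sample.

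**Figure D4:**
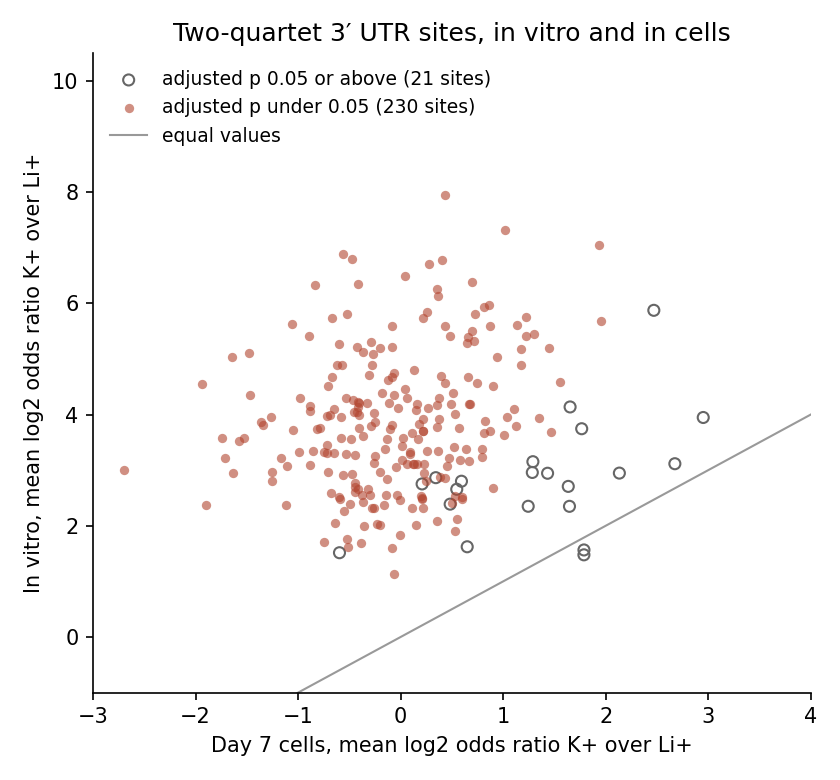
Mean log2 odds ratio of a stop in K+ over Li+ in vitro (vertical axis) against day 7 cells (horizontal axis), means of 2 replicates, for 251 two-quartet 3′ UTR sites; the line marks equal values and the axes differ in scale. Filled points are the 230 sites called higher in vitro by limma, and open points the 21 not called, 2 of which have an estimated difference below 0.

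The share in cells followed the in vitro share only loosely. Across sites with 20 or more K+ reads in both tables, Spearman's rho between the in vitro and day 7 K+ shares was 0.33 (439 sites, replicate 1) and 0.30 (358 sites, replicate 2). Between the in vitro Li+ share and the day 7 K+ share it was 0.30 and 0.31. The day 7 K+ and Li+ shares of the same sample had a rho of 0.44 and 0.28, and the K+ shares of the day 7 replicates 0.37 (356 sites). These are descriptions across sites that share libraries and depth.

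K+ stop counts were compared between days to ask where stops came or went during differentiation. Only 24 of the 515 sites had enough stops to be tested, so nothing is said of the other 491. From day 0 to day 7, 2 of the 24 rose and 3 fell (limma-voom, adjusted p under 0.05). Over all 326 sites tested, 52 were called, 16.0% (32 higher, 9.82%, and 20 lower, 6.13%), beside 20.8% of the two-quartet 3′ UTR sites, which is near the background. Both sites that rose met the minimum of 10 stops in 2 libraries only with the day 7 samples, where they were high, and Asna1, among those that fell, only with the day 0 samples. The direction of these 3 is thus tied to the filter. From day 0 to day 3 none of the 24 was called (2 of 326 sites, 0.613%, were; 2 of the 24 had an unadjusted p under 0.05). From day 3 to day 7, 2 of the 24 rose and none fell (21 of 326 sites called, 6.44%, of which 5.52% higher and 0.92% lower).

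Peg3, an imprinted gene for a zinc finger protein, had 1 and 0 K+ stops in the day 0 samples, 1 and 3 on day 3 and then 94 and 40 on day 7. After scaling these were 2.98 ± 4.2 (SD, n = 2) CPM of stops on day 0 and 209 ± 27 on day 7, a log2 change of 4.47 ± 0.59 (SE, limma adjusted p = 0.0014). The reads over the site rose as well, from 90 and at most 5 on day 0 to 2262 and 1009 on day 7, and the K+ stop share was 1.11% in day 0 replicate 1 and 4.16% and 3.96% on day 7. In Li+ the day 7 shares were 4.75% and 5.05%, above those in K+.

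Ccn1, a secreted matrix protein and a known target of the YAP coactivator, had 2 and 0 K+ stops on day 0, 0 and 0 on day 3 and then 91 and 37 on day 7. After scaling, these were 5.96 ± 8.4 and 197 ± 19 CPM of stops on days 0 and 7, a log2 change of 4.02 ± 0.57 (limma adjusted p = 0.0014). Its K+ reads went from 26 and at most 5 to 1070 and 642. The day 7 share was 8.50% and 5.76% in K+ and 6.70% and 5.86% in Li+. Against day 3, Ccn1 rose by 5.08 ± 0.57 and Peg3 by 2.97 ± 0.59 (limma adjusted p = 0.0017 and 0.015); without day 3 replicate 1 the adjusted p of Peg3 was 0.14. In both genes the day 7 samples lay above all day 0 and day 3 samples. When either day 7 sample was left out, these sites no longer had 10 stops in 2 libraries and were not tested. With no filter on low counts, both were called (limma adjusted p from 0.00058 to 0.0010).

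The 3 sites that fell were in Asna1, Senp3 and Calr. Asna1, which delivers tail-anchored proteins to the endoplasmic reticulum, had 23 and 8 K+ stops on day 0, 4 and 4 on day 3 and then 5 and 7 on day 7 (149 ± 17 and 25.0 ± 21 CPM on days 0 and 7; it fell by 3.11 ± 0.64, limma adjusted p = 0.011). Senp3, a SUMO protease, had 32 and 10 on day 0, 8 and 6 on day 3 and then 18 and 13 on day 7 (it fell by 2.03 ± 0.49, adjusted p = 0.024). Calr, a chaperone of the endoplasmic reticulum, had 29 and 8 on day 0, 5 and 7 on day 3 and then 25 and 12 on day 7 (it fell by 1.58 ± 0.44, adjusted p = 0.034). After scaling, both day 7 values lay below both day 0 values in each gene, while the unscaled counts overlapped in Senp3 and Calr. The K+ reads over Asna1 fell too, from 708 and 201 to 206 and 200 before scaling, and its K+ share was 3.25% and 3.98% on day 0 and 2.43% and 3.50% on day 7. Reads summed over both cations also fell at Senp3, by 1.78 ± 0.31 (limma adjusted p = 0.0072), and were called lower at Calr.

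The decreases in K+ stops depended on the samples, the scaling and the filter. With no filter on low counts none of the 3 was called (limma adjusted p = 0.068, 0.22 and 0.37 for Asna1, Senp3 and Calr), and the 3 sites called were all higher. With the replicate number as a block Calr was not called (0.059). Scaled by total counts alone, none of the 3 was called (adjusted p from 0.075 to 0.61), and all 4 sites then called were higher, because the median log2 change over all sites moves from 0.16 to 1.25. Without day 0 replicate 2 none of the 3 was called (0.12 to 0.14). Without day 0 replicate 1 or day 7 replicate 1 only Senp3 was still tested (0.091 and 0.24), and 2 and 0 sites were called in all; without day 7 replicate 2, 1 was called, with a lower count (limma adjusted p = 0.024). Peg3 and Ccn1 were called under every scaling tried and without either day 0 sample. The remaining 19 sites had log2 changes from -1.22 to 1.97 and adjusted p-values of 0.059 or more. The largest count among these belonged to Bax, with 97 and 28 stops on day 0, 30 and 45 on day 3 and then 135 and 39 on day 7.

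**Figure D5:**
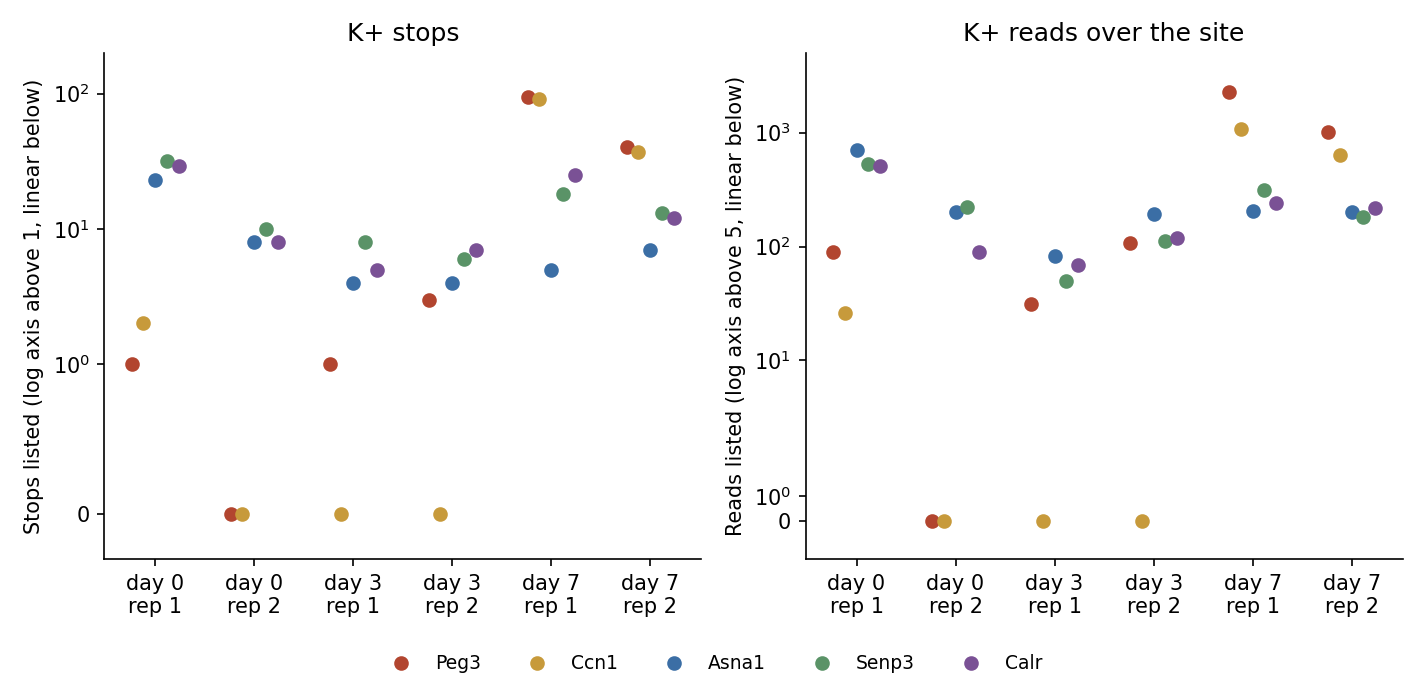
K+ stops (left) and K+ reads (right) listed in each in-cell sample for the 5 two-quartet 3′ UTR sites whose stop count differed between day 0 and day 7; counts are not scaled for library size, axes are logarithmic with a linear part near 0, and a listed 0 on the right stands for at most 5 reads. Peg3 and Ccn1 have 94 and 91 stops in day 7 replicate 1 and 40 and 37 in replicate 2, above every earlier sample.

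Igf2bp1 encodes an RNA-binding protein of early development, and its 5 sites differed widely in stop share. The site nearest the gene end stopped the enzyme in both cations: in vitro its share was 77.7% and 64.8% in K+ and 54.5% and 52.3% in Li+. In day 7 cells its K+ share was 35.7% (149 of 417 reads) and 12.1% (24 of 198), far above the 4.89% and 3.03% of all two-quartet 3′ UTR sites together. This high share was not particular to K+, since its log2 odds ratio of K+ over Li+ was 0.31 and -0.43 in the day 7 samples. In vitro that ratio was 1.54 and 0.74. The difference between in vitro and day 7 odds was 1.17 ± 0.52 (limma adjusted p = 0.035, and 0.20 with no weights). This call was lost without in vitro replicate 1 or without day 7 replicate 2. The site 285 bases from the end had in vitro K+ shares of 25.5% and 24.4%, and day 7 shares of 4.52% and 2.10%. The site 1144 bases from the end had 33.0% and 25.3% in vitro and 8.38% and 6.55% on day 7. The most distant 2 had in vitro means of 18.9% ± 5.9 and 16.2% ± 6.0 (SD, n = 2) and day 7 shares between 0.0% and 4.05%. The replicates of the lower 4 sites overlap in part, so their order is not firm. The reads over the site nearest the end fell by 1.17 ± 0.33 from day 0 to day 7 (limma adjusted p = 0.045), while those at the other 4 sites of the same gene did not pass the test; this call was lost when day 0 replicate 2 (0.23), day 7 replicate 1 (0.20) or day 7 replicate 2 (0.14) was left out. It was also lost with total counts alone (0.36), median-ratio scaling (0.062), the replicate block (0.069) and only the samples of days 0 and 7 (0.094).

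The Tubb5 and Ctcf sites show how a shared sequence can carry different marks. The 2 overlapping Tubb5 motifs had in vitro K+ shares of 81.0% and 85.4% for the shorter and 62.6% and 69.6% for the longer. For Ctcf, a chromatin insulator protein, 2 rows list the same motif at chr8:105682856-105682878 with different stop positions, and their in vitro K+ shares were 25.1% and 23.0% in one row and 41.7% and 50.4% in the other.

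Reads over a site, summed over both cations, were compared between days as a measure of how much of the transcript stretch was in the libraries. In these bulk samples, fewer cells that carry a transcript and less of it per cell cannot be told apart. From day 0 to day 7, 102 of 487 tested sites were called, 78 higher and 24 lower (limma-voom, adjusted p under 0.05). Over all 4988 sites tested, 1010 were called, 20.2% (800 higher, 16.0%, and 210 lower, 4.21%), so the 20.9% of the two-quartet 3′ UTR sites (16.0% higher and 4.93% lower) is the background share. Of the 78 higher sites, 34 met the minimum in 2 libraries only with the day 7 samples, which ties their direction to the filter. Among the 421 sites that needed no single day, 44 were higher and 24 lower (10.5% and 5.7%, beside 7.27% and 5.1% of the 4100 such sites in all). Scaled by total counts alone the split was 107 higher and 3 lower, and the median over all sites moved from 0.51 to 1.18. Counts of calls fell to 3 without day 7 replicate 1, to 20 without day 7 replicate 2 and to 35 without day 0 replicate 2, and rose to 163 without day 0 replicate 1.

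The largest increases were in genes with few or no reads on day 0, and Jun, App, Amot, Arhgap29 and Fignl2 among them met the minimum only with the day 7 samples. Ccn1 had 26 and at most 10 reads on day 0 and 2996 and 1205 on day 7 (337 ± 24 CPM on day 7, SD, n = 2; log2 change 8.29 ± 1.3, limma adjusted p = 0.0059). This change takes the value listed for day 0 replicate 2 as no reads, and would be smaller with as many as 10 reads there. Lrp2, an endocytic receptor of epithelia, was listed at 0 in both day 0 samples and had 436 and 102 reads on day 7, at least 6.5-fold higher with the floor of 10 reads per sample (adjusted p = 0.0015 by limma). A second Peg3 site was also at 0 on day 0 and had 335 and 84 reads, at least 5.2-fold higher. Jun, an AP-1 transcription factor, went from 0 and 0 to 263 and 101 (at least 4.9-fold). App, which encodes the amyloid precursor protein, went from 12 and 0 to 924 and 260. Among the others of the 10 largest, Pea15a, Amot, Arhgap29 and Fignl2 were at 0 in both day 0 samples and at least 2.0-fold to 3.0-fold higher. Without day 7 replicate 1, 7 of these 10 sites were still tested and none was called (adjusted p from 0.11 to 0.21); without day 7 replicate 2, 2 of 7 were, and without day 0 replicate 2, 7 of 10.

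The largest decreases were smaller. Dpf1, a subunit of chromatin remodelling complexes, had 95 and 61 reads on day 0 and 45 and 26 on day 7 (41.0 ± 16 and 6.22 ± 2.0 CPM; it fell by 2.79 ± 0.48, limma adjusted p = 0.0070). Asna1 had 1119 and 435 reads on day 0 and 554 and 362 on day 7 (it fell by 2.22 ± 0.32, adjusted p = 0.0037). Tbx3, a T-box transcription factor, went from 182 and 52 to 129 and 12 (it fell by 2.19 ± 0.63, adjusted p = 0.049). After scaling, the day 7 samples lay below the day 0 samples in all 10 genes of this group. The others were Slc6a8, Senp3, Zmiz2, E2f1, Psmd3, Arih2 and Pfdn6, which fell by 1.51 to 1.90. With total counts alone 3 of the 10 were called, without day 7 replicate 1 only Asna1 was, without day 0 replicate 2 there were 5, and with the replicate block 6.

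Among the gene lists, the immediate early and YAP target genes had 7 tested sites, all called higher in coverage on day 7. Over all sites tested, 16.0% were called higher. The list was chosen with earlier results of these data known, so it is not an independent test. The sites in Jun and both in Klf6 met the minimum only with the day 7 samples, so they could only be higher. The other 4 lie in Ccn1, Ddit4 and Junb, where 2 motifs overlap and rose by 1.25 ± 0.36 and 1.02 ± 0.27 (limma adjusted p = 0.050 and 0.039). Ddit4, an inhibitor of mTORC1 signalling, went from 97 and 61 reads at the start through 251 and 238 on day 3 to 1626 and 594 at the end (2.27 ± 0.38, limma adjusted p = 0.0068). Klf6, a zinc finger transcription factor, was at 0 in all day 0 and day 3 samples at both sites and had 127 and 36 reads at the first site on day 7, at least 2.1-fold higher. Without day 7 replicate 1 none of the 4 sites still tested was called (adjusted p from 0.061 to 0.27), without day 7 replicate 2 there was 1 of 4, without day 0 replicate 2 there were 4 of 7, and without day 0 replicate 1 there were 5 of 7. Neither Junb site was called with the replicate block (0.097 and 0.086) or with only the samples of days 0 and 7 (0.089 and 0.091).

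The other lists held few of these sites. Of 24 chromatin genes 4 had sites, 6 in all, of which 1 was higher in coverage on day 7 (Dnmt3b, a DNA methyltransferase, 1.74 ± 0.44, limma adjusted p = 0.031) and none was lower; Tet1, which oxidises methylcytosine, had 102 and 9 reads on day 0 and 75 and 40 on day 7. Of 22 regulators that act on 3′ UTRs, 6 had a site and 3 were tested, of which Pum2, a repressor that binds 3′ UTRs, was higher (3.86 ± 1.0, adjusted p = 0.038). Neither call held when day 0 replicate 2, day 7 replicate 1 or day 7 replicate 2 was left out, with adjusted p-values of 0.078, 0.098 and 0.078 for Dnmt3b and 0.45, 0.51 and 0.30 for Pum2. Col1a1, a fibrillar collagen and the only extracellular matrix gene of the list with a site, was at 0 on days 0 and 3 and had 76 and 29 reads on day 7, at least 1.4-fold higher, and met the minimum only with the day 7 samples; it is also a marker of feeder fibroblasts, and their part in this value was not tested. Of 23 pluripotency genes only Trim71 had sites, both tested, with 198 and 54 reads on day 0 and 555 and 156 on day 7 at the first, and neither passed. Otx2, the only early differentiation gene with a site, went from 39 and 0 reads to 186 and 61 (limma adjusted p = 0.058). None of the 10 neural genes had a site. Of 28 rG4 helicases and binding proteins only Igf2bp1 did. In K+ stops, 1 listed site was called, that of Ccn1.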

How the data were processed

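Stops of reverse transcription on DMS-treated, chromatin-bound polyadenylated RNA were measured in 6 in-cell samples (2 each on days 0, 3 and 7). The 2 in vitro tables belong to the day 7 records, and the preparation of their RNA is not described in the labels. The tools named in the submitters' processing notes are STAR, SAMtools and cutadapt, and the builds are GRCm38.p6 and mm10 (versions and settings: not given in the sources used here). By their headers, the tables that the authors deposited list coverage and stops in K+ and in Li+ as other whole-number read counts per site, not normalised. Motif coordinates were deposited with a 0-based start and are given 1-based here; gene ends are those of RefSeq for GRCm38.p6.

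Counts were tested with limma-voom (limma 3.58.1, R 4.3.3) on all samples without covariates after trimmed-mean scaling, for sites with 10 stops or reads at the median library size in 2 libraries and 15 in all. K+ against Li+ odds were tested with limma on per-sample log2 odds, with a prior of 0.5 stops at the site's pooled share, at sites with 20 reads in every library and 10 stops in all, weighted by counting and between-sample variance. A first form of these weights gave too many false calls on simulated data and was replaced after its calls on the real data had been seen. P-values were adjusted over all sites tested (Benjamini-Hochberg). A class was compared with another by the median over sites per sample. The scripts were tested on simulated counts. In these, the odds varied less between samples than the real in-cell odds, whose between-sample variance was estimated at 0.31. The fit of in vitro against day 7 was not simulated. The 2 sites with no value in day 0 replicate 1 were left out. Named sites are the 10 largest called changes in each direction, 1 site per gene, or the 3 smallest p-values where under 3 were called, those in listed genes, and the 10 highest in vitro shares; the lowest in vitro shares, the in vitro differences nearest 0, the sites with 1 sign in all samples and the Tubb5 and Ctcf pairs were picked after their values were seen. CPM values of single sites use the trimmed-mean library sizes. Markers of pluripotent, differentiated and feeder cells were counted from all their sites. The sites and lists were chosen with earlier results of these data known. Scaling, filters, priors, coverage minimums, a replicate block and leaving out each sample were tried as alternatives. Some sites that the naming rule selects are not reported here.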

Additional observations from a re-analysis of the deposited data

Results flagged for a closer look

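The common log2 odds ratio of a stop in K+ over Li+ at the two-quartet 3′ UTR sites was below 0 in both day 0 samples (-0.02 and -0.40) and above 0 in both day 3 samples (0.93 and 0.41), a difference of 0.88 between the means. It stood out because every sample of 1 day lay on the opposite side of 0 from every sample of the other. The difference had an exact permutation p of 0.333, the smallest that 2 samples against 2 allow, so it was in effect not tested. The first day 0 value is within its counting error of 0, and the second comes from the library that went against its cation labels. The pattern is not particular to two-quartet sites. Canonical, bulged, long-loop and G-rich 3′ UTR sites also lay below 0 in both day 0 samples and above 0 in both day 3 samples. Bulged sites had -0.18 and -0.77 on day 0 and 1.36 and 0.69 on day 3. G-rich sites had -0.04 and -0.49, and then 0.91 and 0.72.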

How the results depend on the processing

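The count of called two-quartet 3′ UTR sites changed with these settings. For K+ stops, day 7 against day 0, it was 5 (2 higher and 3 lower), and 3 (all higher) with no filter on low counts, and 0 to 3 when a sample was left out; over all sites, total counts alone gave 95 calls in place of 52. For day 3 against day 0 it was 0, and 1 with total counts alone (40 of all sites in place of 2). For day 7 against day 3 it was 2, 4 with no filter, and 0 to 2 when a sample was left out. For coverage it was 102, 56 with the replicate block, 46 with only the samples of the 2 days, and 3 to 163 when a sample was left out. For K+ against Li+ odds it was 0 on each day, 2 with the replicate block on day 3, and 0 to 1 on day 7 and in the change to day 7 when a sample was left out; a coverage minimum of 50 reads gave 23 of 297 sites on day 3, with 0 of 30 two-quartet 3′ UTR sites. For in vitro against day 7 it was 230, 222 with the replicate block and 96 of 97 tested at 50 reads, where fewer sites are tested. The difference from canonical sites ran from -0.22 to -0.63 when a sample was left out and passed no test. Of 659 values under other settings of sites that were called or had the smallest p-values, 1 changed direction: the day 0 odds of Kpnb1 were 0.28 with the cations of day 0 replicate 2 exchanged. Other uncalled sites in listed genes are not among these values, and some changed sign. The causes were not tested. Replicate numbers do not pair the samples: the correlation of replicate differences between days was 0.03, -0.11 and 0.10 for stops, 0.25, -0.05 and -0.00058 for coverage, and -0.02, 0.12 and 0.06 for odds. The quasi-likelihood count test of edgeR was planned and not run. Exchanging the cations and the Mantel-Haenszel ratio were chosen after seeing the data. With 2 samples a day and a few stops per site in most libraries, differences at single sites in cells were mostly not detectable at this depth.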
